A study of Mus musculus with 20 samples.

Results

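The mRNA levels of 31 genes of the oligodendrocyte lineage and of myelin were examined in the neocortex and hippocampus of mice lacking the APP family in excitatory neurons, out of 24421 genes in the deposited counts. The genes were taken by symbol from a list of lineage and myelin genes, and all 31 were present in all 20 libraries and passed the filter on low counts in every comparison. The first 7, Pdgfra, Olig1, Olig2, Sox10, Gpr17, Bmp2k and Enpp6, are treated here as precursor genes, expressed in precursors, in newly formed oligodendrocytes or throughout the lineage. The other 24, from Mbp to Gpr37, are genes of mature, myelinating oligodendrocytes.

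Oligodendrocytes arise from precursor cells that divide under PDGF signalling, and they wrap axons of the central nervous system in myelin, a stack of membrane rich in galactolipids and held together by a small set of proteins. The transcription factors Olig1, Olig2, Sox10, Nkx6-2 and Myrf direct this program, with Myrf switched on as the cells begin to make myelin. In the adult forebrain, precursors persist in grey and white matter, and most myelin lies in the white matter tracts below the neocortex and around the hippocampus.

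RNA was sequenced from both regions in 3-month-old mice, namely cTKO animals and control littermates, and each of the 4 combinations of genotype and region had 5 libraries, which makes 20. Both genotypes carried floxed alleles of App, Aplp1 and Aplp2 on a mixed background of C57BL/6J and 129, and both sexes were used. Controls, which the labels call wild type, lacked Cre, whereas cTKO mice also carried Camk2a-Cre, which recombines in forebrain excitatory neurons after birth and is not directed at oligodendrocytes. The tissue was dissected whole, so neurons and all glia contribute RNA to each library. Per the study's methods, each genotype was represented by 5 mice and both regions were taken from the same animals, so the regions are not independent samples. No source used here says which library numbers belong to 1 mouse.

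Total counts were between 12169474 and 25331954 per library. In each region, all cTKO libraries lay below all controls for App, Aplp1 and Aplp2, with log2 fold changes from -2.10 (App, neocortex) to -1.25 (Aplp2, hippocampus). Levels are given as counts scaled to a common library total, the usual CPM after TMM scaling, and a gene was called at a false discovery rate (FDR) under 0.05 in edgeR's quasi-likelihood test, adjusted by the Benjamini-Hochberg method over all genes tested. In cTKO mice, 2 libraries contained embryonic transcripts, with H19 at 318 CPM in neocortical library 5 and 195 CPM in hippocampal library 4, and at most 2.15 CPM in all others. Without either of them, 0 of the 31 genes were called between genotypes in the region concerned.

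The regulatory sequence in front of a few of the genes is shown first. Promoter windows from RefSeq (GRCm38.p6) were found for 22 of the 31 genes, 18 mature and 4 precursor. The 250 bases before each annotated start were searched on both strands for the core of Sox sites (ACAAAG or ACAATG, counted as one motif), the core of the Myrf site (CTGGCAC) and an E-box bound by Olig factors (CAGCTG). None of these words contains another. The stretches below run 5′ to 3′ on the strand of the gene, with capitals marking the words found. They end at the RefSeq start, or before it where the gene as annotated in GENCODE begins earlier. Pdgfra is shown as the gene with the lowest p in a genotype comparison, Qdpr as the gene with the largest difference between regions that did not depend on 1 library, Mag and Cnp as the 2 genes with both a Sox core and a Myrf core, and Mobp as the gene with the most Sox cores, 6 in all.

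Pdgfra, chr5:75152001-75152250, plus strand: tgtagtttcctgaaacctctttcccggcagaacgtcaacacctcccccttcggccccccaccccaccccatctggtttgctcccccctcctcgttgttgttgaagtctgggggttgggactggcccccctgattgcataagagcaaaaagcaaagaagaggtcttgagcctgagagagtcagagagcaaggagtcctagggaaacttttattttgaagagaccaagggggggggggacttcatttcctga
Qdpr, chr5:45450237-45450479, minus strand: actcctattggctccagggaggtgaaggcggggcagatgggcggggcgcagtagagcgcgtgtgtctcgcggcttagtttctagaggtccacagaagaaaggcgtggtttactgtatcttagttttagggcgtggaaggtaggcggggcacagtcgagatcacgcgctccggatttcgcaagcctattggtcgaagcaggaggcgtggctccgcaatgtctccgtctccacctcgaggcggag
Mag, chr7:30914874-30915113, minus strand: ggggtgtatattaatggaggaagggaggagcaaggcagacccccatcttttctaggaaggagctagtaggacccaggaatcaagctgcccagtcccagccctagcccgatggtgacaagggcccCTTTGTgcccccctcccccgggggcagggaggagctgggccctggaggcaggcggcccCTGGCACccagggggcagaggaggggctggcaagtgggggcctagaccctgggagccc
Cnp, chr11:100574689-100574903, plus strand: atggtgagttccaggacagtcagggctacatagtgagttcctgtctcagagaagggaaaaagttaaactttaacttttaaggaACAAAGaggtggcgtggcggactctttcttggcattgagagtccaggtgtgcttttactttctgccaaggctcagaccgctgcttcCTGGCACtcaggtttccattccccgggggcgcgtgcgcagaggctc
Mobp, chr9:120149492-120149706, plus strand: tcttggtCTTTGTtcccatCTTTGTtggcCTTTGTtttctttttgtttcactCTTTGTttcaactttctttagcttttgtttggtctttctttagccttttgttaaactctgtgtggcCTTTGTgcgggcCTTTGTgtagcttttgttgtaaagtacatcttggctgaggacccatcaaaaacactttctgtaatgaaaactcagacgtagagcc

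None of the 3 motifs was found in the Pdgfra or Qdpr stretch. A Sox core was present in 10 of the 24 windows of mature genes (41.7%), compared to 25.2% of all 32851 windows. By gene it was 8 of 18 (44.4%), compared to 28.2% of all 27025 genes with a window. The Myrf core was present in 3 mature windows, all of Mag or Cnp (12.5%), against 4.19% of all windows. The Mag windows that hold it overlap and share the same site, and by gene it was 2 of 18 (11.1%), against 4.83%. The E-box was found in 1 mature window, that of Aspa (4.17%), against 13.0% of all. Of the 4 precursor genes with a window, Olig2 and Enpp6 held a Sox core, and none held either of the others. These are matches of letters only, and no binding was measured.

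The tissue expressed the whole program. Per kilobase of annotated exon, Mbp was the highest of the 31 genes in all 4 groups, with 293 CPM per kilobase in the control neocortex and 407 in the control hippocampus. Mbp encodes the protein that joins the cytoplasmic faces of the myelin membrane. Next in the control neocortex came Mal (73.3), Car2 (63.0), Cldn11 (59.2) and Qdpr (49.3 CPM per kilobase). Among precursor genes, Olig1 stood highest at 42.0 CPM per kilobase, Pdgfra was at 7.40, and Enpp6, a phosphodiesterase of newly formed oligodendrocytes, was the lowest of all 31 at 1.08. The exon lengths and positions are from GENCODE M21 on GRCm38.

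The 24 mature genes took between 0.336% and 0.774% of all counts in a library, and Mbp alone made up 51.1% to 63.8% of their summed CPM. The highest share was that of control hippocampal library 3, which also held the most Enpp2. In 16 of the 31 genes the annotated span overlaps another gene, in 14 of them on the opposite strand. Gpr17 lies within the span of Lims2, and Trf shares its strand and nearly all its span with the annotated gene Gm20425. The sources used here do not say whether the libraries kept strand, so reads from shared exons may not be assignable to one partner.

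The first question was whether the loss of the APP family in excitatory neurons changes oligodendrocyte mRNA levels. In the neocortex, none of the 31 genes was called between genotypes, against 0.188% of the 13843 genes tested, and none reached an unadjusted p of 0.05, against 10.4% of all genes. In the hippocampus, again 0 of 31 were called, against 0.489% of 13702 genes, and 3 reached an unadjusted p of 0.05, against 12% of all genes. DESeq2 and edgeR's exact and likelihood ratio tests also called 0 in both regions. For the neocortex, the median log2 fold change of the 7 precursor genes and that of the 24 mature genes were both -0.07, compared to 0.0062 over all genes tested. In the hippocampus it was -0.050 for the precursor genes, 0.00036 for the mature genes and 0.0049 for all genes. In whole tissue, fewer cells of a type and less RNA per cell cannot be told apart.

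The precision of these values limits what could have been seen. In the neocortex, the 95% interval of the log2 difference lay within 1 in either direction for all 31 genes and within 0.5 for 18 of 24 mature and 6 of 7 precursor genes. In the hippocampus, it lay within 1 for every gene except Enpp2, and within 0.5 for 20 mature and all 7 precursor genes. A change of 2-fold in Mbp was outside its interval in both regions, which ran from 0.764 to 1.19 fold in the neocortex and from 0.751 to 1.27 fold in the hippocampus.

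**Figure D1:**
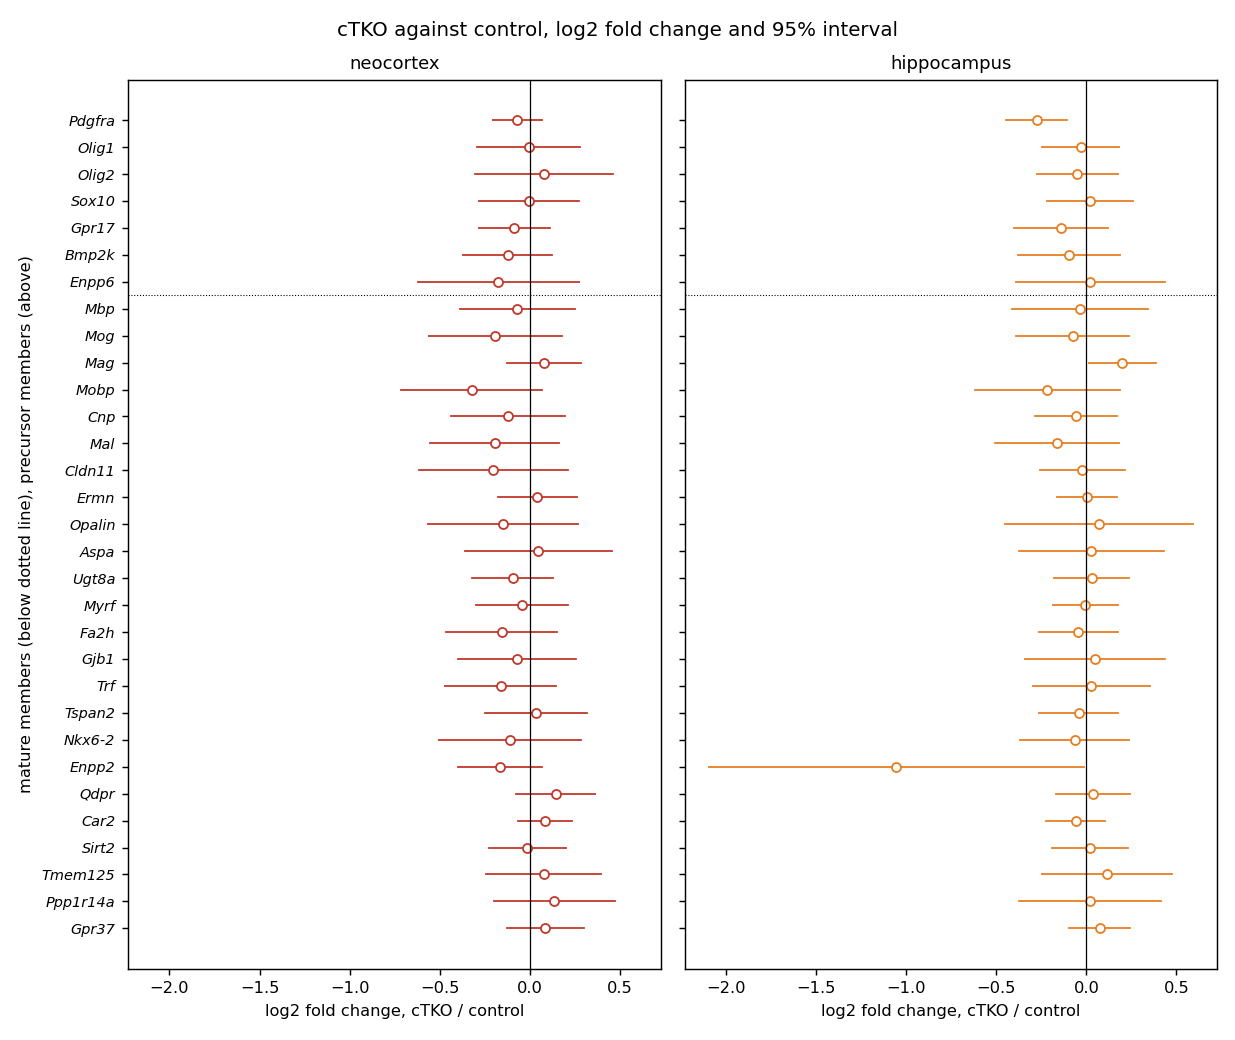
Log2 fold change of cTKO against control with its 95% interval for the 31 genes, in the neocortex (left) and hippocampus (right), 5 libraries per genotype. Open circles are genes not called at an FDR under 0.05, which is every gene here, and Enpp2 in the hippocampus has the widest interval.

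Of the precursor genes, Pdgfra had the lowest p. Pdgfra, at chr5:75152292-75198215, encodes the receptor through which PDGF-A drives division and survival of precursors. In the hippocampus, the 5 control libraries were at 83.2, 80.1, 77.3, 77.7 and 73.9 CPM and the 5 cTKO libraries at 60.3, 57.0, 72.1, 73.9 and 60.7 CPM. Every cTKO library was below every control library, although the lowest control and the highest cTKO library differed by less than 0.1 CPM. Groups separated in this direction for 1 of the 31 genes, against 1.23% of all genes tested. The log2 fold change was -0.28 ± 0.079 (SE), a fold of 0.826 with an interval of 0.734 to 0.929. It did not pass the threshold, with an unadjusted p of 0.00395 and an FDR of 0.169 in edgeR. The exact permutation test, two-sided, gave p = 0.00794, the smallest that 5 against 5 libraries allow. Groups without overlap always give this value, so it adds nothing to the separation above. It is also not adjusted for the choice of Pdgfra among the 31 genes. Without cTKO library 4, which held embryonic transcripts, the log2 fold change was -0.33 with an FDR of 0.0917. In one fit of all 20 libraries, edgeR gave an FDR of 0.0489. That fit took both regions of a mouse as independent libraries, which they are not.

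In the neocortex, Pdgfra was at 69.3, 75.2, 76.3, 79.9 and 70.2 CPM in controls and at 66.9, 76.2, 66.9, 69.2 and 72.9 CPM in cTKO mice. These groups overlapped, with a log2 fold change of -0.07 ± 0.063 (SE) and an FDR of 0.756. The difference between the regions in the effect on Pdgfra was -0.20 ± 0.10 (SE) on the log2 scale, with an unadjusted p of 0.0530 in edgeR, and it was not called.

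The transcription factors of the lineage did not separate the genotypes. In the neocortex and then the hippocampus, the log2 fold changes of Olig1 were -0.0066 ± 0.13 (SE) and -0.031 ± 0.10 (SE), for Olig2 0.079 ± 0.18 (SE) and -0.05 ± 0.10 (SE), and for Sox10 -0.0059 ± 0.13 (SE) and 0.018 ± 0.11 (SE). In the cTKO neocortex, library 3 stood above the rest for both Olig genes, with 129.9 CPM of Olig1 against 69.9 to 85.3 in the other 4, and 52.4 CPM of Olig2 against 26.3 to 28.8. Gpr17, a G protein-coupled receptor of committed precursors, had log2 fold changes of -0.087 and -0.14. For the kinase Bmp2k they were -0.12 and -0.10, and for Enpp6 -0.18 and 0.023. The FDR values of these 6 genes lay between 0.723 and 0.994 in both regions.

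The genes for structural proteins of myelin also overlapped between genotypes. Mbp ranged from 2135 to 2789 CPM in control and from 1762 to 3446 CPM in cTKO neocortex, and from 2693 to 4079.8 and 2499 to 4449 CPM in the hippocampus. The ranges of the genotypes overlapped in both regions. The largest neocortical difference in size among the 31 genes was that of Mobp, a protein of compact myelin. Control libraries held 219, 279, 335, 273 and 221 CPM of Mobp and cTKO libraries 197, 201, 315, 132 and 213 CPM, for a log2 fold change of -0.32 ± 0.18 (SE) and an FDR of 0.575. In the hippocampus it was -0.22 ± 0.19 (SE) with an FDR of 0.717.

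Mog, a surface protein of the outermost layer, had log2 fold changes of -0.19 in the neocortex and -0.076 in the hippocampus. For Cnp, the cyclic nucleotide phosphodiesterase of uncompacted myelin, they were -0.12 and -0.058, for Mal, a membrane protein of lipid sorting, -0.20 and -0.16, and for Cldn11, which forms the tight junctions of myelin, -0.20 and -0.023. The 4 genes lay below 0 in both regions, and none was called. The values of Ermn, a cytoskeletal protein, were 0.042 and 0.0058, those of the glycoprotein Opalin -0.15 and 0.07, and those of the tetraspanin Tspan2 0.033 and -0.043. The connexin gene Gjb1 was at -0.07 and 0.046.

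Mag was the only mature gene with a positive log2 fold change and an unadjusted p under 0.05. It encodes the adhesion protein that faces the axon, at chr7:30899176-30914873. Hippocampal controls were at 94.5, 109, 108, 110.0 and 85.9 CPM and cTKO libraries at 132, 102, 117, 115 and 117 CPM. The groups overlapped, with 4 of 5 cTKO libraries above the highest control. The log2 fold change was 0.20 ± 0.086 (SE), with an unadjusted p of 0.0384 and an FDR of 0.382 in edgeR, and it was 0.079 ± 0.10 (SE) in the neocortex (FDR 0.832).

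The genes for enzymes of myelin lipids and metabolism showed small differences. Ugt8a, which makes galactosylceramide, had log2 fold changes of -0.095 in the neocortex and 0.029 in the hippocampus, and Fa2h, which hydroxylates the fatty acids of these lipids, -0.16 and -0.044. Aspa, the aspartoacylase that splits N-acetylaspartate, was at 0.047 and 0.027. Qdpr, the dihydropteridine reductase, was at 0.14 and 0.038, and Car2, a carbonic anhydrase, at 0.084 and -0.06. For the deacetylase Sirt2 the values were -0.013 and 0.021, and for the iron carrier Trf -0.16 and 0.028.

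Of the 2 mature transcription factors, Myrf had log2 fold changes of -0.045 ± 0.12 (SE) in the neocortex and -0.0051 ± 0.083 (SE) in the hippocampus, and Nkx6-2 -0.11 ± 0.18 (SE) and -0.063 ± 0.14 (SE). The receptor Gpr37 was at 0.086 and 0.073, Ppp1r14a, an inhibitor of myosin phosphatase, at 0.14 and 0.021, and Tmem125 at 0.078 and 0.11. None had an unadjusted p under 0.05 in either region.

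Enpp2 gave the largest difference in size, and its highest library in each hippocampal group was also the highest for the choroid plexus gene Ttr. Enpp2 encodes autotaxin, which makes lysophosphatidic acid and is made by both oligodendrocytes and choroid plexus epithelium. Hippocampal controls were at 355, 357, 1342, 289 and 150.2 CPM and cTKO libraries at 172, 195, 223, 200.2 and 413 CPM. The highest value was that of control library 3, and the lowest also belonged to a control, library 5. The log2 fold change was -1.05 ± 0.48 (SE), with an unadjusted p of 0.0476 and an FDR of 0.408 in edgeR, and it was -0.26 with an FDR of 0.852 without control library 3.

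Ttr, the transthyretin gene that defines choroid plexus epithelium, was at 342, 427, 2464, 209 and 38.3 CPM in the same 5 controls and at 72.9, 109, 96.5, 141 and 527 CPM in the 5 cTKO libraries. Control library 3 and cTKO library 5 were the highest of their group for both genes. Ttr was named because Enpp2 moved with it, so this is no independent check. All 11 choroid plexus markers that passed the filter had log2 fold changes below 0 in the hippocampus, with a median of -1.54. An unadjusted p under 0.05 was reached by 6, against 12% of all genes, and none was called, against 0.489%. The summed level of the markers ran from 87.5 to 2867 CPM in hippocampal controls, with a median of 434 CPM. It ran from 147 to 637 CPM in hippocampal cTKO libraries (median 167 CPM) and from 13.0 to 22.8 CPM in the neocortex. In the neocortex, Ttr was between 2.39 and 8.56 CPM, and Enpp2 had a log2 fold change of -0.17 ± 0.11 (SE) with an FDR of 0.639. The part of the choroid plexus in the Enpp2 values was not tested.

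**Figure D2:**
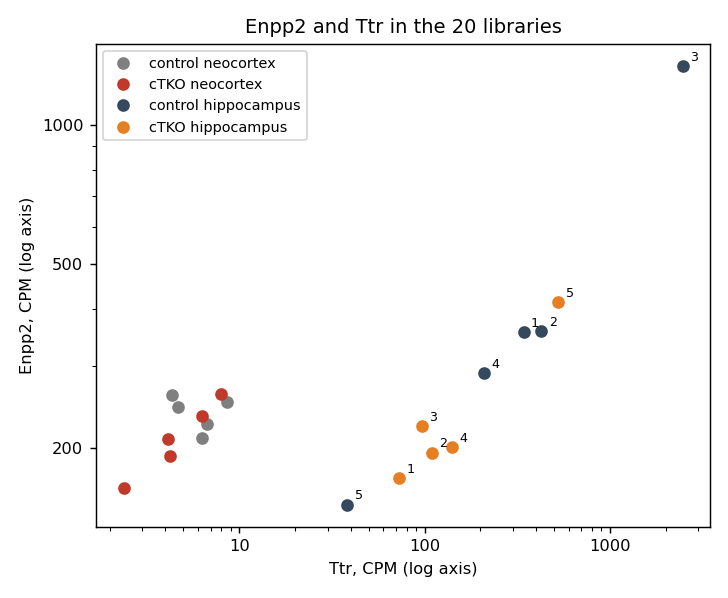
Enpp2 against Ttr, both in CPM on log axes, in the 20 libraries, coloured by group and with library numbers for the hippocampus. The hippocampal libraries form a rising series from control library 5 (150 CPM of Enpp2) to control library 3 (1342 CPM), whereas the neocortical libraries lie at Ttr levels under 10 CPM.

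The mature genes varied between libraries more than genes in general, and they did so together. The coefficient of variation within a group had a median over the 24 mature genes of 14.2% in control neocortex, 21.02% in cTKO neocortex, 12.9% in control hippocampus and 15.1% in cTKO hippocampus, compared to 8.94%, 12.3%, 8.85% and 13.1% over all genes. In the cTKO neocortex, library 3 was the highest of the 5 for 21 of the 24 mature genes and 4 of the 7 precursor genes, while it was the highest for 28.1% of all 14192 genes. Library 4 of that group was the lowest for 18 of the 24, against 16.5% of all genes. In control hippocampus, library 5 was the lowest for 21 of the 24, against 20% of all genes. In the cTKO hippocampus, library 3 was the highest for 14 of the 24 and library 4 the lowest for 13, against 19.2% and 23.1% of all genes.

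The summed level of the mature genes ran from 4065 to 5246 CPM in control neocortex, from 3386 to 6117 CPM in cTKO neocortex, from 4588 to 7664 CPM in control hippocampus and from 4490 to 7034 CPM in cTKO hippocampus. The sum of 7664 CPM is that of control hippocampal library 3 and includes 1342 CPM of Enpp2. In both regions, the ranges of the genotypes overlapped. Leaving out 1 library moved the neocortical median of the mature genes between -0.17 (without cTKO library 3) and 0.0080 (without cTKO library 4), and the hippocampal median was -0.08 without control library 5.

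An astrocyte marker also stood apart in single libraries. Gfap, the intermediate filament of astrocytes, was named here after its values were seen. In cTKO neocortical library 4 it was at 505 CPM, against 95.1 to 184 in the other 4. In cTKO hippocampal library 4, which also held embryonic transcripts, it was at 3110.3 CPM, against 426 to 1454. These libraries are not known to come from 1 mouse, and their deviations from the group means correlated at -0.056. Of the 9 astrocyte markers, 7 had log2 fold changes below 0 between genotypes in the neocortex (median -0.093) and 5 in the hippocampus (median -0.10), with none called. The other 2 and 4 were above 0, with the largest value of the list at 0.954 in the neocortex and 1.58 in the hippocampus. At an unadjusted p under 0.05, 1 marker was higher and 2 lower in the neocortex, and 1 was higher and 1 lower in the hippocampus. Over all genes the shares in either direction were 10.4% and 12%. The summed level of all 9 astrocyte markers ran from 5470.4 to 6050.4 CPM in cTKO neocortex and from 6088 to 6687 CPM in control neocortex, and from 5960.1 to 9250.4 and from 6798 to 9116 CPM in the cTKO and control hippocampus. Library 4 was at 5791 CPM in this sum in the cTKO neocortex, below 3 of the other 4, and at 9250.4 CPM in the cTKO hippocampus, the highest of its group. The part of astrocytes in the values of the mature genes was not tested.

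**Figure D3:**
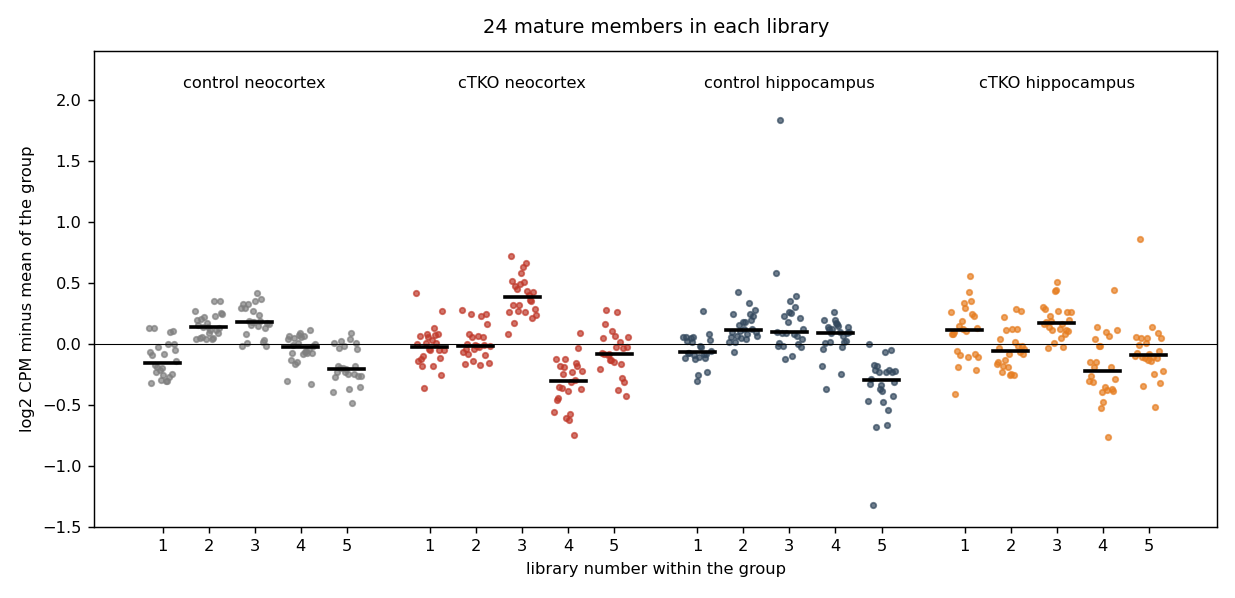
Log2 CPM of each of the 24 mature genes minus its mean over the 5 libraries of the group, for each of the 20 libraries (points), with the median of the genes in a library (bars). Library 3 of the cTKO neocortex lies above its group, library 4 of the cTKO neocortex and library 5 of the control hippocampus lie below theirs, and the single points far off in the hippocampus are Enpp2.

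The second question was how the regions differ in these genes. The regions differed in dissection and also in the RNA purification kit, and these cannot be told apart. In controls, 9 of the 31 genes were called between hippocampus and neocortex, 7 higher and 2 lower in the hippocampus, against 59% of the 13832 genes tested. The groups did not overlap for 2 of the 31, Qdpr and Car2, against 44.2% of all genes. The median log2 difference was 0.07 for the mature genes, -0.02 for the precursor genes and 0.0079 for all genes.

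Qdpr and Car2 had the smallest p. Qdpr was at 93.8, 95.2, 88.7, 85.4 and 77.4 CPM in control neocortex and at 119, 149, 136, 135 and 112 CPM in control hippocampus, with the lowest hippocampal library above the highest neocortical one. The log2 difference was 0.55 ± 0.077 (SE), a fold of 1.47 (95% interval 1.31 to 1.65), with an FDR of 1.94e-05 in edgeR. Car2 was at 146, 157, 151, 157 and 153 CPM in control neocortex and at 189.8, 214, 220.2, 199.8 and 206 CPM in control hippocampus. It was again higher in every hippocampal library, by 0.42 ± 0.051 (SE) on the log2 scale with an FDR of 4.23e-06. Both genes are also expressed outside oligodendrocytes, and the cell type behind each value is not resolved in whole tissue.

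Mbp and Gpr37 were higher in the hippocampus with overlap between the groups. The mean of Mbp was 2484 ± 316 CPM for the neocortex of controls and 3450.2 ± 673 CPM for their hippocampus (SD, n = 5 each), a log2 difference of 0.46 ± 0.12 (SE) with an FDR of 0.00383. Gpr37 was at 53.4 ± 6.85 and 69.3 ± 6.89 CPM (SD, n = 5 each), a log2 difference of 0.37 ± 0.087 (SE) with an FDR of 0.00191. Ermn (0.28 ± 0.075 (SE), FDR 0.00491) and Olig1 (0.24 ± 0.08 (SE), FDR 0.0161) were also called higher, although Olig1 was not called in one fit of all 20 libraries (FDR 0.121). Enpp2 was called higher with a log2 difference of 1.06 ± 0.41 (SE) and an FDR of 0.0375, and it was 0.27 with an FDR of 0.223 without control hippocampal library 3, the library with the most Ttr. The Enpp2 call was lost in 8 of 18 alternatives, among them DESeq2 (FDR 0.0752) and leaving out any of the 5 neocortical libraries (FDR from 0.0562 to 0.0735).

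Myrf and Mag were lower in the hippocampus. Myrf was at 67.7, 86.1, 92.7, 87.6 and 86.1 CPM in control neocortex and at 68.8, 71.6, 64.8, 76.9 and 66.4 CPM in control hippocampus. Neocortical library 1 lay within the hippocampal range and the other 4 lay above it. The log2 difference of Myrf was -0.28 ± 0.078 (SE) with an FDR of 0.00654, and that of Mag was -0.22 ± 0.081 (SE) with an FDR of 0.0288. The Mag call was lost on leaving out any of 5 single libraries (FDR from 0.0526 to 0.0880), namely neocortical libraries 2, 3 and 4 and hippocampal libraries 1 and 5.

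Control libraries of the same number deviated together in the 2 regions, so a fit with the replicate number as a block was also made. It called 7 genes higher and 3 lower, against 61.2% of all genes in the same fit. Under this replicate block, Enpp2 was not called (log2 difference 0.63, FDR 0.0554), and Ppp1r14a (0.30, FDR 0.0118) and Fa2h (-0.20, FDR 0.0335) were called. In the unblocked fit, Ppp1r14a was at 0.31 ± 0.17 (SE) (FDR 0.121) and Fa2h at -0.21 ± 0.10 (SE) (FDR 0.0813).

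**Figure D4:**
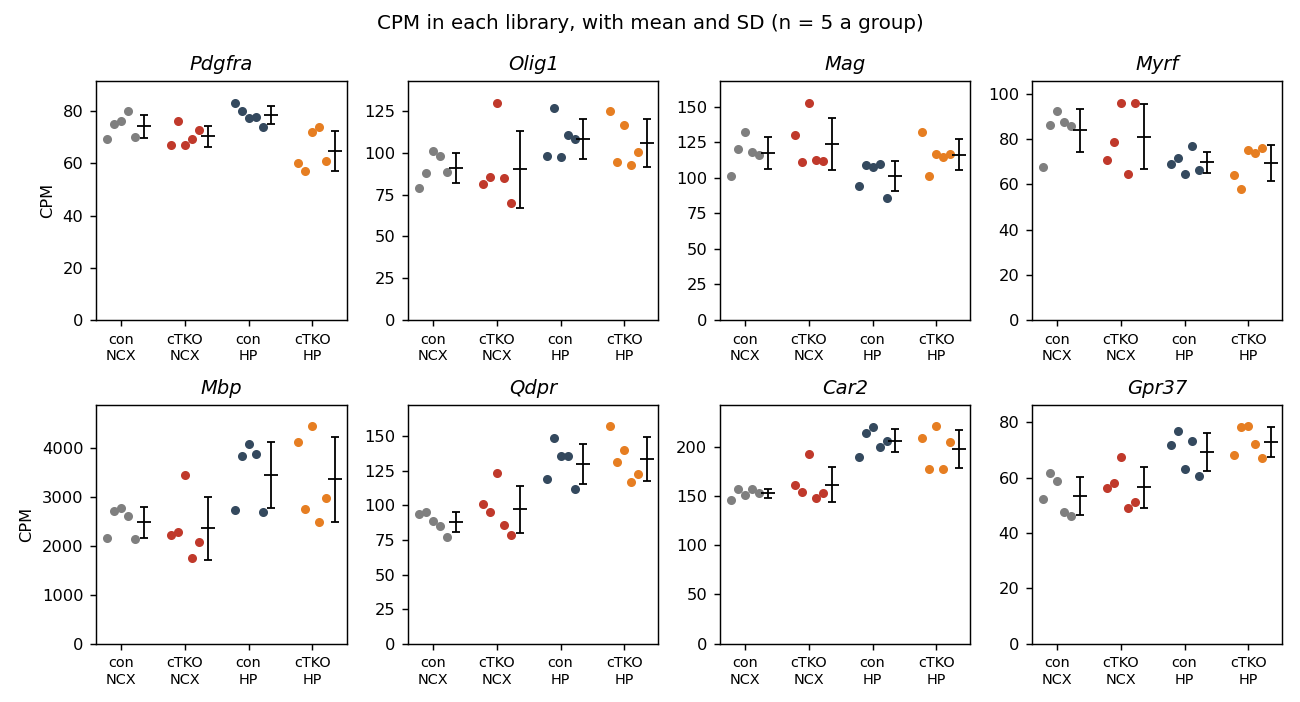
CPM of 8 genes in each of the 20 libraries (points) with the group mean and SD (bars, n = 5), for control (con) and cTKO neocortex (NCX) and hippocampus (HP), on linear axes that start at 0. The hippocampal points of Qdpr, Car2, Gpr37 and Mbp lie mostly above the neocortical ones in both genotypes, those of Myrf mostly below in controls, and the cTKO hippocampal points of Pdgfra below their controls.

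In cTKO mice, 3 of the 31 genes were called between the regions, all higher in the hippocampus, against 41.3% of 13846 genes. They were Qdpr (0.45 ± 0.12 (SE), FDR 0.00873), Car2 (0.28 ± 0.091 (SE), FDR 0.0285) and Gpr37 (0.35 ± 0.091 (SE), FDR 0.00803). Mbp had a log2 difference of 0.49 ± 0.20 (SE) with an FDR of 0.0594, and it was called by the exact test, the likelihood ratio test, DESeq2 and the fit of all 20 libraries (FDR from 0.0241 to 0.0336). With the replicate number as a block, Mbp (FDR 0.00490) and Ermn (FDR 0.0426) were called as well, although the numbers did not pair all cTKO libraries. Myrf had a log2 difference of -0.24 ± 0.12 (SE) with an FDR of 0.140. The Car2 call was lost without any of 7 single libraries, neocortical libraries 1, 2, 4 and 5 and hippocampal libraries 1, 3 and 5, with an FDR from 0.0557 to 0.0743. Without neocortical library 3, Mbp (0.67, FDR 0.00860) and Olig1 (0.38, FDR 0.0118) were called. Without both libraries with embryonic transcripts, Qdpr, Car2 and Gpr37 were called and so was Ermn (0.31, FDR 0.0350). The median log2 difference was 0.14 for the mature genes, -0.08 for the precursor genes and -0.0028 for all genes.

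**Figure D5:**
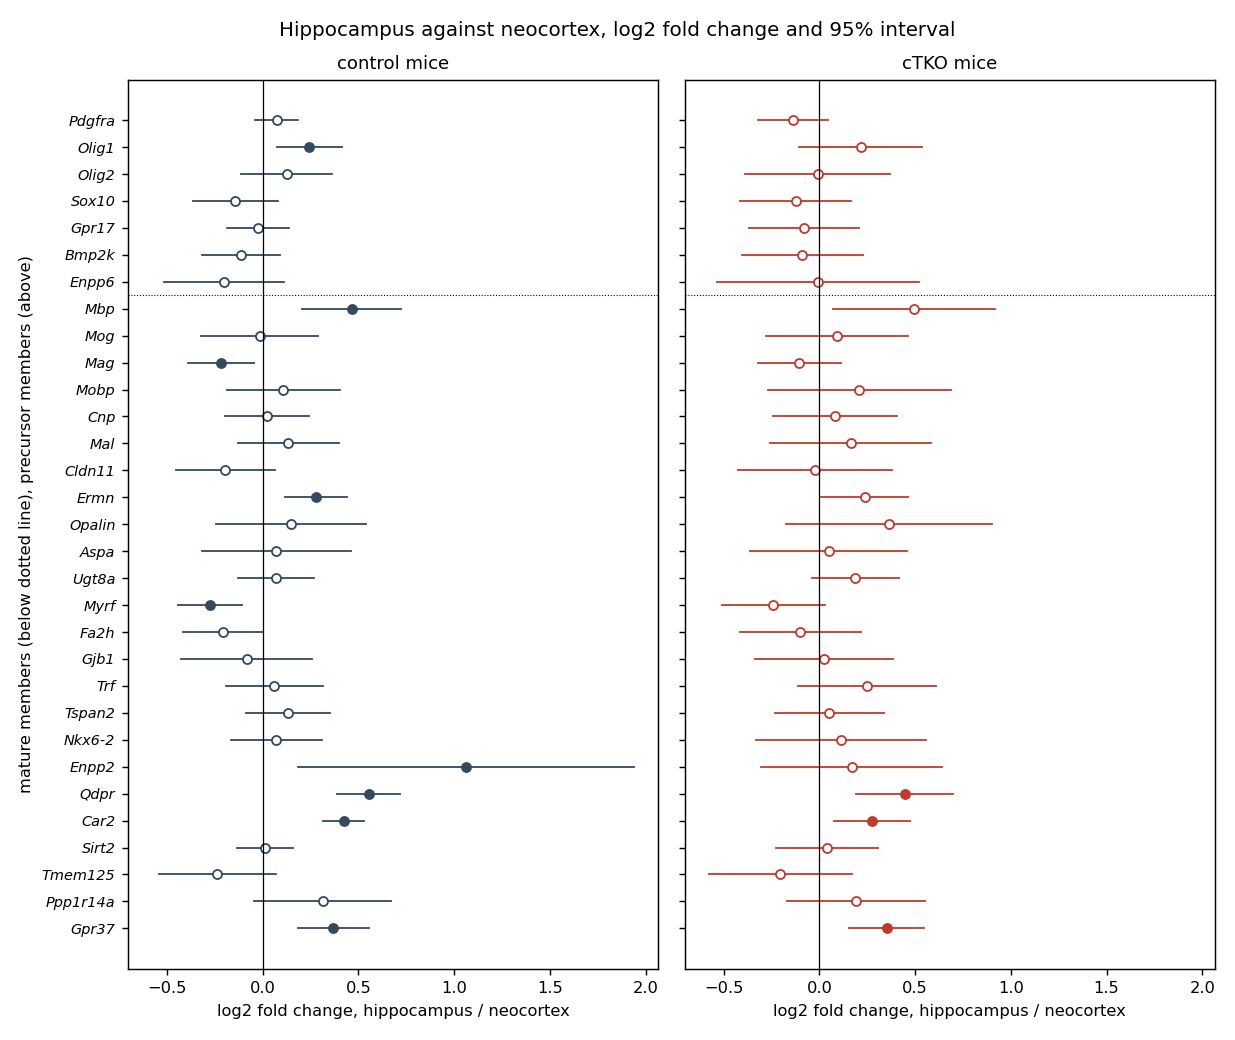
Log2 fold change of hippocampus against neocortex with its 95% interval for the 31 genes, in control (left) and cTKO mice (right), 5 libraries per region. Filled circles are genes called at an FDR under 0.05, 9 in controls and 3 in cTKO mice.

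Whether the genotype effect differed between the regions was tested by the interaction in one fit of all 20 libraries. None of the 31 genes was called, against 0.0564% of 14192 genes, and none had an unadjusted p under 0.05, against 3.75% of all genes. DESeq2 and edgeR's likelihood ratio test also called 0 of the 31. The 9 genes called between regions in controls and the 3 called in cTKO mice are therefore not shown to differ in their regional pattern by genotype.

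Further genes of the lineage were examined from lists outside the 31. Of 24 other precursor and newly formed oligodendrocyte genes, none was called between genotypes in either region, with medians on the log2 scale of -0.011 (neocortex) and -0.086 (hippocampus). In the hippocampus, 16 of these genes had log2 fold changes below 0 and 8 above, and Cspg4, the NG2 proteoglycan, had the smallest p. Cspg4 was at 21.7, 22.4, 23.0, 21.4 and 27.6 CPM in hippocampal controls and at 17.6, 15.5, 19.1, 19.5 and 22.2 CPM in cTKO libraries. These groups overlapped in 1 cTKO library, and the log2 fold change was -0.30 ± 0.10 (SE) with an FDR of 0.261. Whole tissue does not resolve which cells the Cspg4 and Pdgfra mRNA came from. In the neocortex, Pcdh15, a protocadherin, had the smallest p of the list, with 0.49 ± 0.22 (SE) and an FDR of 0.443. Between the regions in controls, 5 of these genes were called higher and 6 lower in the hippocampus, against 59% of all genes, led by Pcdh15 (-1.68), the small GTPase Rras2 (0.80) and C1ql1 (0.51).

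Of 40 other mature genes, 38 were tested in the hippocampus and 1 was called between genotypes, against 0.489% of all genes. This was Tmeff2, a transmembrane protein with follistatin-like domains, at 94.9, 98.2, 93.6, 92.4 and 84.5 CPM in controls and 135, 139.5, 151, 130.3 and 112 CPM in cTKO mice. All 5 cTKO libraries lay above all controls, and Tmeff2 rose by 0.53 ± 0.077 (SE) on the log2 scale with an FDR of 0.0123 in edgeR. Tmeff2 is also expressed in neurons. The list had a median of 0.0052 in the hippocampus and of -0.028 in the neocortex. In the neocortex, 39 were tested and none was called, against 0.188% of all genes. Dock10 had the smallest p there (-0.19 ± 0.075 (SE), FDR 0.407). Between the regions in controls, 8 of 39 were called higher and 9 lower in the hippocampus, against 59% of all genes, with Klk6 (-1.83), a protease of myelinating cells, Dock10 (1.12) and the contactin Cntn2 (-0.81) the largest in size.

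Of 15 genes for myelin sphingolipids and galactolipids, 0 were called between genotypes in either region, against 0.188% (neocortex) and 0.489% (hippocampus) of all genes. The median log2 fold changes were 0.042 (neocortex) and 0.032 (hippocampus). The smallest p belonged to the ceramidase Asah1 in the neocortex (0.10 ± 0.07 (SE), FDR 0.663) and the sphingomyelinase Smpd1 in the hippocampus (0.12 ± 0.058 (SE), FDR 0.429). Between the regions in controls, 2 were called higher and 3 lower in the hippocampus, against 59% of all genes, the largest in size being Sptssa (0.83), a subunit of serine palmitoyltransferase, the elongase Elovl1 (-0.41) and the desaturase Degs1 (0.37).

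Of 26 ligands and receptors of lineage growth factors, 0 of the 23 tested in the neocortex and 0 of the 24 tested in the hippocampus were called between genotypes. The chemokine receptor Cxcr4 had the smallest p in the neocortex (1.20 ± 0.33 (SE), FDR 0.194) and the Notch ligand Jag1 in the hippocampus (-0.46 ± 0.11 (SE), FDR 0.118). The study, also with edgeR but without naming the test, reported Cxcr4 as higher in cTKO mice in both regions at an FDR under 0.05. It also reported Cxcr4 as higher by qRT-PCR in a different set of mice. Of 18 axonal and nodal partners of myelin, 0 were called between genotypes in either region, against the same 0.188% and 0.489%. The adhesion molecule Cadm3 had the smallest p in both. It was at 0.25 ± 0.061 (SE) (FDR 0.135) in the neocortex and 0.31 ± 0.071 (SE) (FDR 0.0894) in the hippocampus. Between the regions in controls, 7 of 24 growth factor genes were called higher and 9 lower in the hippocampus, against 59% of all genes, led by Cxcr4 (2.02), neuregulin Nrg1 (-1.89) and Lif (1.64). Of the partners of myelin, 3 of 18 were called higher and 11 lower, against the same 59%, led by the potassium channel genes Kcna2 (-1.10) and Kcnab2 (0.90) and by Cadm4 (-0.73).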

How the data were processed

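RNA from the neocortex and hippocampus was sequenced as single-end poly-A libraries (TruSeq), purified with RNeasy Plus Universal kits for the neocortex and Mini kits for the hippocampus. Per the submitters' processing notes and methods, the authors aligned reads to mm10 with STAR 2.5.4a and counted them with HTSeq, and the HTSeq version, annotation and strand setting are not given in the sources used here. The deposited values are raw counts per gene, made by the authors without normalization, in 24421 genes and 20 libraries, and 0 value columns were left unused.

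Counts were scaled by TMM and tested with edgeR 4.0.16 (quasi-likelihood F-test) in R 4.3.3, for genes above 1 CPM in at least 5 libraries of a fit, with Benjamini-Hochberg adjustment over all genes tested and a call at an FDR under 0.05. Each 2-group comparison used its own 10 libraries, and the interaction used all 20. Medians over the genes were given with no test. The 31 genes, their division and the other lists were chosen with earlier results of these data known. From the other lists, genes were named that were called between genotypes, had the smallest p there, or were among the 3 largest called differences between regions in controls. Gfap was singled out after its values were seen, and Ttr because Enpp2 moved with it. The steps were tested only on simulated counts with no change or with changes larger than most genotype differences of the 31 genes. Smaller changes were not simulated.

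Per the study's methods, the 5 libraries of a group came from 5 mice, and each mouse gave both regions, although no source used here ties library numbers to animals. Total counts of 12169474 to 25331954 set the counting precision. Control libraries of the same number deviated together between the regions (r from 0.130 to 0.335 in 5 of 5 pairs, each correlating best with its own number), and the pairing by number was taken from this check. Alternatives were edgeR's exact and likelihood ratio tests, DESeq2 1.42.0, other size factors and filters, a replicate block, one fit of all 20 libraries, and leaving out libraries. Sequences were read from RefSeq on GRCm38.p6.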

Additional observations from a re-analysis of the deposited data

Results flagged for a closer look

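Single libraries stood apart from the other 4 of their group in 8 of 124 combinations of gene and group, by Dixon's test at its 95% critical value, where chance gives about 1 in 20, or 6.2. In the cTKO neocortex, library 3 was the highest for Olig1 (129.9 CPM, others 69.9 to 85.3), Olig2 (52.4 CPM, others 26.3 to 28.8) and Sirt2 (205.8 CPM, others 142 to 158), and library 1 was the highest for Bmp2k (17.3 CPM, others 12.2 to 13.1). Library 1 of the control neocortex was the lowest for Myrf (67.7 CPM, others 86.1 to 92.7), and library 5 of the control hippocampus the lowest for Tspan2 (100.4 CPM, others 127 to 137). Enpp2 was highest in library 3 of the control hippocampus (1342 CPM, others 150.2 to 357) and in library 5 of the cTKO hippocampus (413 CPM, others 172 to 223), which also held the most Ttr of their groups.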

How the results depend on the processing

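Of 3100 results for single genes under the alternatives, 3059 kept their direction and their side of the threshold or changed sign while called in neither fit (237 such sign changes, in 29 genes), 22 lost a call, 19 gained one and 0 reversed. In one fit of all 20 libraries, 1 gene (Pdgfra) was called lower between genotypes in the hippocampus, against 1.42% of all genes. That fit took both regions of a mouse as independent libraries. Between the regions in controls, that fit called 6 higher and 1 lower in the hippocampus, against 51.5% of all genes. In cTKO mice it called 5 higher, against 49.3%. Leaving out 1 library gave 1 to 4 genes called lower in controls, where 55.8% to 58.4% of all genes were called in either direction. In cTKO mice, leaving out 1 library gave 2 to 5 called higher, where 35.3% to 41.2% of all genes were called. The replicate block gave 5 called higher in cTKO mice (Mbp, Ermn, Qdpr, Car2 and Gpr37), against 41.9% of all genes in that fit, where only 3 of 5 numbers had a correlation above 0.1 and 3 of 5 libraries correlated best with their own number. The highest correlation there, 0.575, was between neocortical library 5 and hippocampal library 4, the pair with embryonic transcripts, which this block does not pair. Between genotypes, 3 of 5 numbers passed in the neocortex and 1 in the hippocampus, and the replicate block called 0 of the 31 genes in either region and 0 in the interaction. The causes were not tested.

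Over all genes, calls between genotypes numbered 26 in the neocortex and 67 in the hippocampus, compared to 167 and 257 by the exact test, 167 and 259 by the likelihood ratio test, 221 and 331 by DESeq2, 12 and 58 with the replicate block, 17 and 195 in one fit of all 20 libraries, and 7 to 133 and 15 to 149 on leaving out 1 library. With no filter, 42 and 72 were called. The interaction called 8 genes, against 26 by DESeq2 or the likelihood ratio test, 18 with the replicate block and 5 to 20 on leaving out 1 library. Each of the 31 genes had at least 57 counts in every library.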
